A study of Homo sapiens with 8 samples.

Results

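Oxidative phosphorylation is a human pathway whose enzymes are built from 2 genomes, and it was followed here in HMLE, a line of human mammary epithelial cells made immortal in culture. Its members were taken by symbol: the subunits of respiratory complexes I, III and IV and of ATP synthase, together with complex I assembly factors and the ATP synthase inhibitor, leaving out NDUFA4 and readthrough symbols, with at least 100 UMIs over the 4 mRNA libraries. Of the 36601 genes in the files, 105 symbols matched and 100 passed the minimum, 13 of them encoded in mitochondrial DNA and 87 in nuclear DNA. A UMI is a unique molecular identifier, so a count stands for 1 captured transcript molecule.

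The series asks how these cells pass through epithelial-to-mesenchymal transition under TGF-β, and what G-quadruplexes, folded guanine-rich DNA, do in it, probed with the ligand pyridostatin. In all, 12 samples were each marked with 1 short barcoded oligonucleotide, SBO01 to SBO12, and counted by 10x Genomics 5' single-cell sequencing in 4 mRNA libraries with 4 matching barcode libraries. A pool of 6 samples, SBO01 to SBO06, gave 2 loads, libraries 1 and 2, and the other, SBO07 to SBO12, gave libraries 3 and 4. Which barcode received TGF-β or pyridostatin, and for how long, is not stated in the labels. Treated and untreated cells were therefore not compared, and a population below means the cells assigned to 1 barcode.

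Complexes I, III and IV pass electrons along the inner mitochondrial membrane and pump protons, and ATP synthase uses the proton gradient to make ATP. The mitochondrial genome encodes a few core subunits of each of these complexes and is transcribed inside the organelle as long polycistronic RNAs that are then cut into single transcripts. All other subunits come from nuclear genes and are imported, so both sets of transcripts serve the same enzymes but are made by separate polymerases. Among the members, complex I had 7 mitochondrial and 38 nuclear genes, complex III 1 and 10, complex IV 3 and 12, and ATP synthase 2 and 18, and there were 8 complex I assembly factors and 1 inhibitor. Roles were assigned by symbol, so NDUFA4L2 is counted among the complex I genes by its prefix alone.

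The mRNA libraries held 139331790 to 179421284 gene UMIs in 5149 to 8792 cell barcodes, and 22147 cells had at least 1000 genes and at most 15% mitochondrial UMIs. Of these, 11072 carried 1 barcode, 352 to 1864 per population, with 8589593 to 48844485 UMIs per population. Across libraries, 899 cell barcode sequences occurred more than once and were treated as separate cells. All 12 epithelial markers exceeded 1 CPM (counts per 1000000 UMIs) in at least 1 population, and their sum ran from 1679 CPM in SBO05 to 12856 CPM in SBO09, while the leukocyte sum stayed at or below 0.349 CPM. The 12 mesenchymal markers summed to 5545 CPM in SBO05. SBO12 stood apart in its barcode assignment: SBO12 was the highest barcode in 36.9% of its cells, against 70.3% in SBO11 and 79.8% or more elsewhere, so the main values of SBO12 and its counts of members called are also given for only the cells in which it was highest; the counts over other gene lists are for all its cells. Libraries of a pool are 2 loads of the same cells, and p-values therefore measure technical spread, not spread between cultures.

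The 2 genomes differed in how much their summed level varied over populations. The mitochondrial members summed to 19287 CPM in SBO01, between 13757 and 15443 CPM in SBO02 to SBO06, between 14713 and 16872 CPM in SBO07 to SBO11, and 20027 CPM in SBO12. SBO01 and SBO12 were thus above every other population. The basal mammary markers KRT5, KRT14, KRT17, TP63 and ITGB4 were each higher in both of these than in any other population. KRT5, a keratin of basal epithelial cells, stood at 1785 CPM in SBO01 and 1787 CPM in SBO12, against 73.2 CPM in SBO05 and 514 to 692 CPM in the others. Their epithelial marker sums, 5323 and 5257 CPM, were lower than in every population but SBO05. The part of these markers in the mitochondrial level was not tested. The nuclear members stayed between 27479 CPM in SBO02 and 28787 CPM in SBO11.

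Per nuclear member UMI, mitochondrial members gave 0.701 UMIs in SBO01, 0.512 in SBO02, 0.498 in SBO03, 0.505 in SBO04, 0.541 in SBO05 and 0.515 in SBO06. In the other pool the ratio was 0.541 in SBO07, 0.525 in SBO08, 0.584 in SBO09, 0.581 in SBO10, 0.586 in SBO11 and 0.703 in SBO12. Both loads put SBO01 and SBO12 highest in their pool: 0.677 and 0.727 for SBO01, and 0.714 and 0.692 for SBO12. SBO12 cells whose highest barcode was SBO12 gave 0.671.

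The ratio spanned 0.42 on the log2 scale over SBO07 to SBO12, and the loads of each population agreed more closely than in most of the 720 possible pairings of populations (exact permutation test, one-sided, p = 0.00556). With the stricter rule that a cell's top barcode must have 3 times the UMIs of the next, the span was 0.19 and p was 0.224 in the exact permutation test. Over SBO01 to SBO06 the span was 0.49, and the same exact test gave p = 0.0875. There, the p fell to 0.0125 in the exact permutation test when cells above 5% mitochondrial UMIs were left out. Cells nearly devoid of mitochondrial UMIs, under 0.5%, made up 2.27% of SBO01, 1.06% of SBO12 and 1.23% of SBO05, whose ratio was 0.541. They made up 14.2% of SBO02 and 11.9% of SBO04. Without these cells the span was 0.40 for libraries 1 and 2 and 0.33 for libraries 3 and 4. The cells were removed by the same mitochondrial UMIs that form the ratio, so their part in it was not tested.

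**Figure D1:**
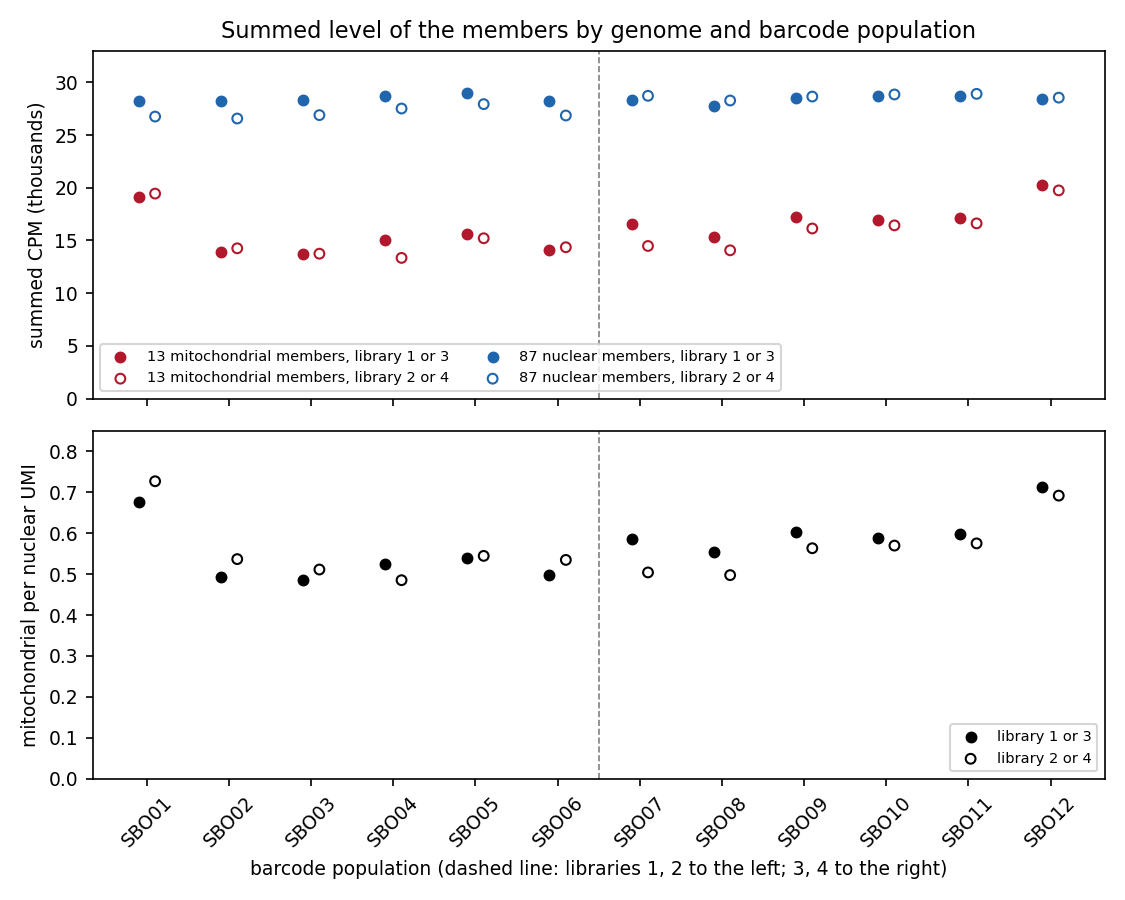
Upper panel: summed CPM (axis in units of 1000) of the 13 mitochondrial (red) and 87 nuclear (blue) members in each barcode population. Lower panel: mitochondrial per nuclear member UMI. Filled points are library 1 or 3 and open points library 2 or 4, and the dashed line separates the pools. The nuclear points lie on nearly 1 level while the mitochondrial points of SBO01 and SBO12 lie above the rest.

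SBO01 and SBO12 were also the highest in each complex taken by itself. For complex I, the ratio of mitochondrial to nuclear UMIs was 0.438 in SBO01 and 0.437 in SBO12, against 0.329 to 0.387 in the other 10 populations. For complex III, where MT-CYB is the only mitochondrial member, it was 0.494 and 0.503 against 0.287 to 0.397. For complex IV it was 1.91 and 1.94 against 1.35 to 1.64. ATP synthase varied most in proportion, at 0.219 and 0.216 against 0.119 to 0.142 in 9 of the others, with SBO05 between them at 0.185. In SBO12 cells whose highest barcode was SBO12, the ratios were 0.42 for complex I, 0.479 for complex III, 1.86 for complex IV and 0.202 for ATP synthase, lower than in all its cells and still above the 10 other populations.

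Every mitochondrial member differed between populations in both pools. In libraries 1 and 2, all 13 mitochondrial members and 78 of the 86 nuclear members left by the filter on low counts passed edgeR's quasi-likelihood F test at a false discovery rate of 0.05, where 79.5% of all 15113 genes did. In libraries 3 and 4, all 13 and 57 of 86 passed, where 44.1% of all genes did. The share of nuclear members was near the background in libraries 1 and 2. In libraries 3 and 4 the 57 fell to 26 without SBO12, to 25 without library 3 and to 26 without library 4.

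The mitochondrial members did not rise by equal amounts. MT-CO3, a core subunit of cytochrome c oxidase (complex IV), had the widest range of the 13, 1.18 on the log2(CPM + 1) scale. It stood at 2206 CPM in SBO01 and 2623 CPM in SBO12, against 1160 to 1649 CPM in SBO02 to SBO06 and 1513 to 1853 CPM in SBO07 to SBO11. Neither group of others reached the 2 high populations. In the SBO12 cells whose highest barcode was SBO12, MT-CO3 stood at 2473 CPM. MT-ATP6, the proton channel subunit of ATP synthase, stood at 1417 CPM in SBO01, 1230 CPM in SBO05 and 1438 CPM in SBO12, against 750 to 938 CPM elsewhere. MT-ATP8, which lies on the same transcript and overlaps it, gave 286, 276 and 313 CPM in those 3 populations and 155 to 221 CPM elsewhere. MT-CYB, the haem-bearing core of complex III, gave 1671 CPM in SBO01, 1361 in SBO05 and 1773 in SBO12. It gave 928 to 1031 CPM in SBO02, SBO03, SBO04 and SBO06, and 1161 to 1371 CPM in SBO07 to SBO11. SBO05 thus lay inside the range of SBO07 to SBO11, which are of the other pool. Against its own pool, MT-CYB in SBO05 was higher by 0.32 on the log2 scale (edgeR adjusted p = 4.91e-11).

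The subunit genes MT-ND4L, MT-CO1 and MT-ND4 had the narrowest mitochondrial ranges, 0.35, 0.35 and 0.39. MT-ND4L and MT-ND4 overlap on 1 transcript. MT-CO1 ran from 4247 CPM in SBO08 to 5422 CPM in SBO01. MT-ND6 ranged over 1.02, from 66.2 CPM in SBO08 to 136 CPM in SBO05, and it is the one member encoded on the opposite strand of the mitochondrial genome. Whether the counting used strand is not given in the sources used here. It is therefore not known here whether reads from that gene and from its antisense partner were told apart. SBO01 to SBO06 had at least 88.4 CPM of MT-ND6, and of SBO07 to SBO12 only SBO12 did, at 101 CPM.

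**Figure D2:**
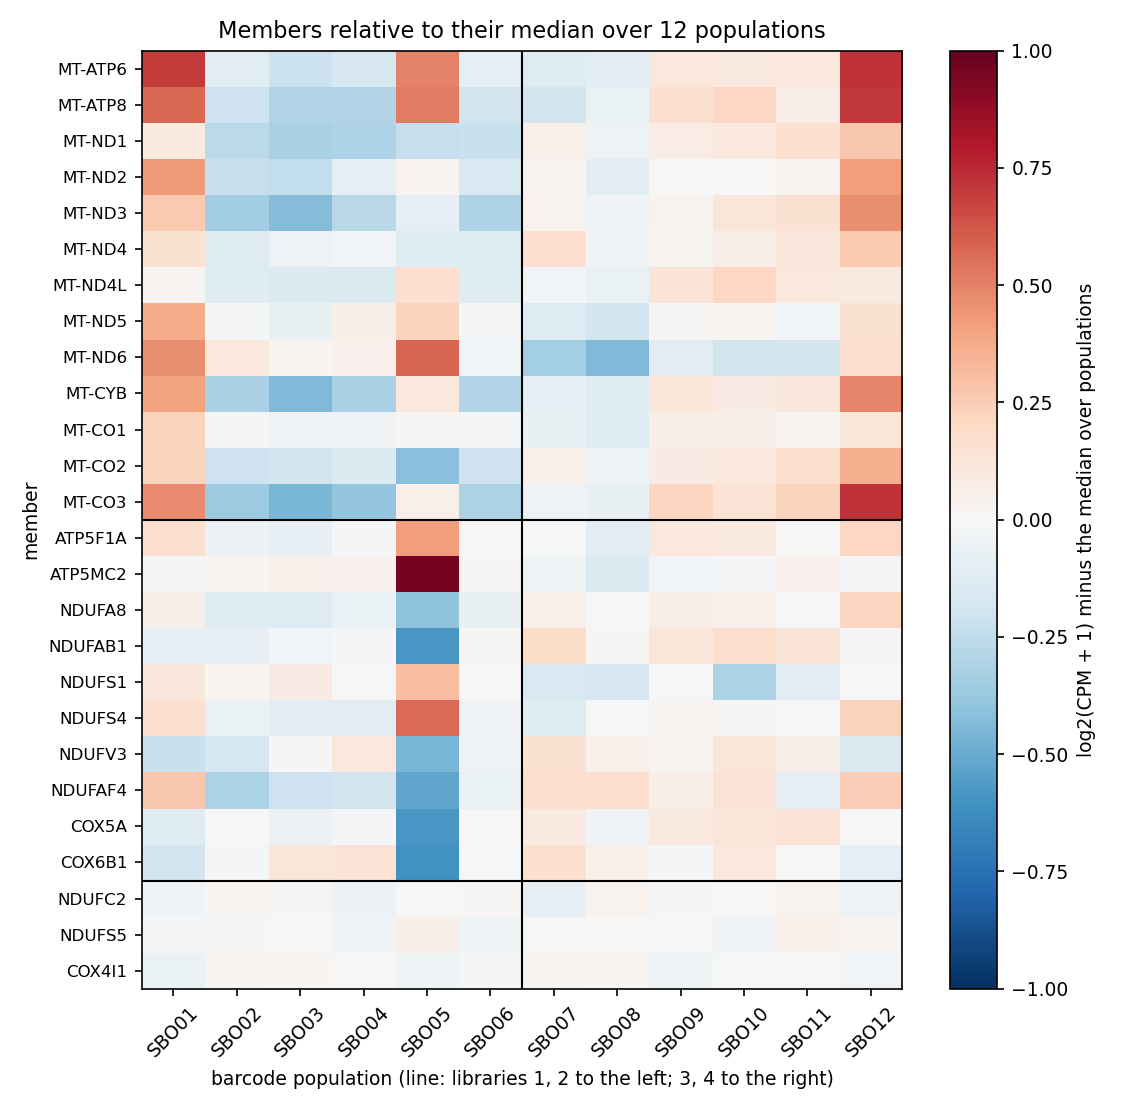
Each cell shows a member's log2(CPM + 1) in 1 barcode population minus its median over the 12 populations, red above and blue below. The upper block holds the 13 mitochondrial members, the middle block the 10 nuclear members of widest range, and the lower block the 3 of narrowest range (0.12 or less). SBO01 and SBO12 are red through most of the upper block, and SBO05 departs most in the middle block.

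Each population was then set against the mean of the other 5 of its pool. These comparisons share samples, so their values are given side by side only. Against its pool, SBO01 had all 13 mitochondrial members higher, with a median log2 fold change of 0.56 and a range of 0.19 (MT-ND4L) to 0.86 (MT-CO3), where 28.7% of all genes were higher and 25.3% lower by edgeR. SBO12 had 12 higher and none lower, with a median of 0.43 and values from 0.06 (MT-ND4L, the one not called) to 0.74 (MT-ATP6), where 23.1% of all genes were higher and 21.4% lower. Among SBO12 cells whose highest barcode was SBO12, 12 were also higher, and with the stricter barcode rule 9 were higher and 1 lower.

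SBO05, the population with the highest mesenchymal and lowest epithelial marker sums, had a mixed pattern: 9 mitochondrial members were higher and 1 lower, where 37.4% of all genes were higher and 33.8% lower. The largest changes were in MT-ATP8 (log2 fold change 0.63 ± 0.04 SE), MT-ATP6 (0.50 ± 0.03 SE) and MT-ND6 (0.49 ± 0.04 SE). MT-CO2, the copper-bearing subunit of complex IV, fell by 0.30 ± 0.03 SE (edgeR adjusted p = 7.73e-11). With plain library totals MT-ND4, a core subunit of complex I, was also called lower, at -0.08 (edgeR adjusted p = 0.0175), so that 9 were higher and 2 lower. Of all 15113 genes, 5415 were then higher and 5295 lower. MT-CO2 stood at 2813 and 2631 CPM in the 2 loads of SBO05. All 10 values of the other populations of the pool were higher, from 3080 to 4314 CPM. As a share of mitochondrial member UMIs, MT-CO2 made up 17.7% in SBO05 and 22.1 to 24.5% in the other 11 populations, whereas MT-ATP6 made up 7.96% in SBO05 and 5.17 to 7.35% in the others. The ratio in SBO05, 0.541, summed opposite changes of single mitochondrial transcripts. When cells under 0.5% mitochondrial UMIs were left out, 7 were higher and 4 lower. The median log2 fold change was then 0.09, in place of 0.18.

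In SBO02, SBO03, SBO04, SBO06, SBO07 and SBO08 the mitochondrial members that passed were all lower, 13, 12, 8, 8, 10 and 13 of 13, where 11.1, 12.2, 4.83, 7.58, 4.82 and 4.05% of all genes were lower and 11.8, 13.6, 6.95, 13.1, 5.39 and 7.75% higher. With plain library totals in place of the TMM scaling, which sets most genes level, the counts lower were 8, 11, 5, 8, 9 and 13. Of all 15113 genes, 817, 1282, 460, 1385, 496 and 656 were then lower. Those higher were 2326, 2445, 1291, 1780, 1082 and 1153. SBO09 had 1 lower, SBO10 had 2 higher and SBO11 had none that passed, where 2.63% of all genes were higher and 2.09% lower in SBO09, 4.87 and 2.92% in SBO10, and 3.74 and 3.93% in SBO11.

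Nuclear members moved less, and SBO05 held the highest level of 34 among the 82 that averaged 20 CPM or more. Their median range over the 12 populations was 0.32 on the log2(CPM + 1) scale, against 0.78 for the mitochondrial members and 0.50 for all 6097 genes at that level. In SBO05, 48 nuclear members were higher and 16 lower, where 37.4% of all genes were higher and 33.8% lower. By role, 27 of 38 complex I subunits were higher and 5 lower, 5 of 10 complex III subunits were higher and none lower, 4 of 12 complex IV subunits were higher and 5 lower, and 9 of 17 ATP synthase subunits were higher and 3 lower. The median over nuclear members was 0.10, beside 0.02 for all genes. SBO05 also had the lowest median depth, 20862 UMIs per cell, and the highest level of the nuclear RNA MALAT1, 3186 CPM, and their part in these differences was not tested.

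ATP5MC2 showed the widest range of any nuclear member. ATP5MC2, ATP5MC1 and ATP5MC3 are 3 separate nuclear genes that encode the same mature c subunit, the protein whose ring turns as protons pass through ATP synthase. In RefSeq (GRCh38.p14) they lie at chr12:53665170-53681423, chr17:48892787-48895871 and chr2:175176258-175181710, in that order. ATP5MC2 stood at 833 CPM in SBO05 (831 and 836 CPM in the 2 loads) and at 389 to 444 CPM in the other 11 populations. The loads of SBO05 did not overlap any other value, and the change against its pool was 0.96 ± 0.03 SE on the log2 scale (edgeR adjusted p = 6.62e-22). ATP5MC1 stood at 353 CPM in SBO05, within its range of 333 to 441 CPM, and its change was -0.03 ± 0.02 SE (edgeR adjusted p = 0.229). ATP5MC3 stood at 753 CPM in SBO05, within its range of 689 to 880 CPM, with a change of 0.02 ± 0.03 SE (edgeR adjusted p = 0.496). With plain library totals the changes were 0.94 for ATP5MC2, -0.05 for ATP5MC1, then called lower, and -0.00 for ATP5MC3.

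**Figure D3:**
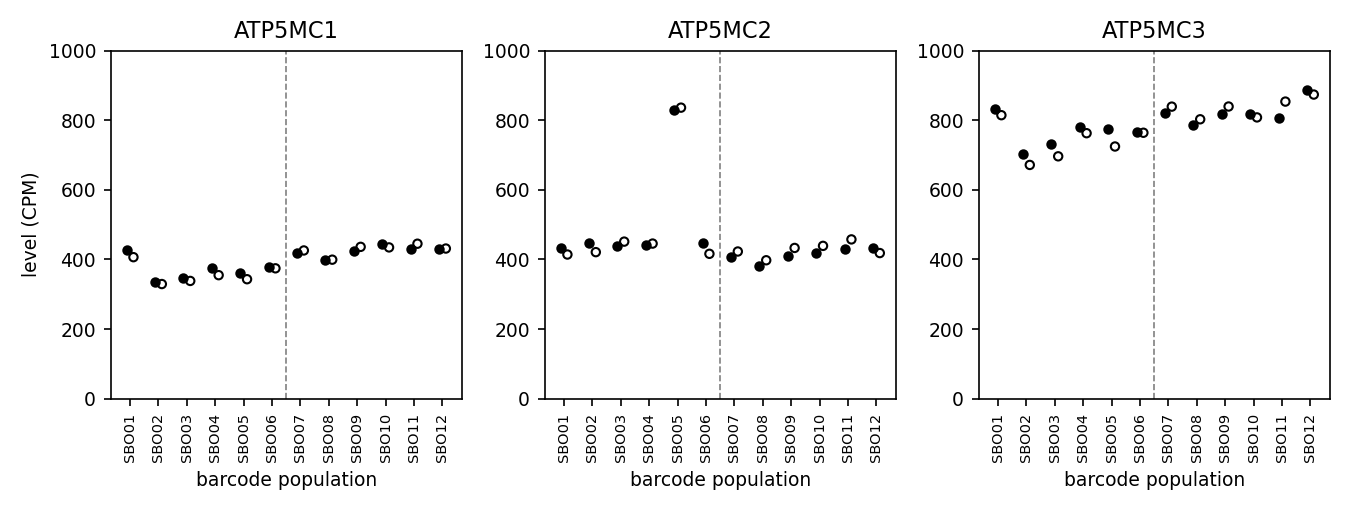
Level in CPM of the 3 genes for the ATP synthase c subunit in each barcode population, filled points for library 1 or 3 and open points for library 2 or 4. The dashed line separates the pools. ATP5MC2 stands at 831 and 836 CPM in SBO05, above every other point, while ATP5MC1 and ATP5MC3 show no such point.

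The upstream sequences of 2 of these genes are shown because their transcripts parted in SBO05, and that of UQCR11, a small complex III subunit, because it holds motifs of both NRF1 and the ETS family. These are factors long known to drive nuclear genes of the respiratory chain. Each is the 250 bases before the gene's first listed start, from RefSeq (GRCh38.p14), written 5′ to 3′ on the gene's strand: ATP5MC2 at chr12:53676084-53676333 (minus strand), ATP5MC1 at chr17:48892537-48892786 (plus strand) and UQCR11 at chr19:1605463-1605712 (minus strand). ATP5MC2 has 3 listed starts, and only the first is shown. The stretch shown lies inside the span given above for that gene. Which start was used in these cells was not tested. Capitals mark a cAMP response element (TGACGTCA) in ATP5MC1, and in UQCR11 1 ETS motif (CCGGAAGT) and 2 NRF1 motifs (GCGCA and GCGC with 1 free base between them, on the opposite strand).
ATP5MC2: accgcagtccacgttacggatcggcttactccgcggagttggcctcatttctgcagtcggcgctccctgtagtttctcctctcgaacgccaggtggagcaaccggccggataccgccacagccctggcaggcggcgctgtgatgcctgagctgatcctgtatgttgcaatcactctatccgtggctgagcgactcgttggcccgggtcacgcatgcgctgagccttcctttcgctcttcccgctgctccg
ATP5MC1: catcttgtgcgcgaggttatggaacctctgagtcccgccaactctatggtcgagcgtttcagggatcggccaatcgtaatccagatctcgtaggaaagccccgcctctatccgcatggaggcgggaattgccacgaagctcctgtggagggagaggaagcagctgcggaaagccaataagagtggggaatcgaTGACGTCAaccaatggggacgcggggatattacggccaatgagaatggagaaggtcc
UQCR11: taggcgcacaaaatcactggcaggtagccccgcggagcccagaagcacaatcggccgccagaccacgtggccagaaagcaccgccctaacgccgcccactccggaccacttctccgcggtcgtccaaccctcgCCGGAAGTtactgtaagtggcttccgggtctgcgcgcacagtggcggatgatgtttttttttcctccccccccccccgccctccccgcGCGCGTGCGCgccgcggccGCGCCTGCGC

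For the motif counts, such sequences were taken before every listed start of a gene, not only the first. They could be matched for 73 of the 87 nuclear members, and for 27305 genes in all. A gene was counted for a motif if the sequence before any of its starts held a match. The shares therefore also depend on how many starts are listed per gene. On either strand, the NRF1 motif was in 16.4% of members and 6.2% of all genes, the ETS motif in 15.1 and 4.13%, the cAMP response element in 5.48 and 2.03%, and the YY1 motif in 1.37 and 0.439%. TATAAA was in 6 of the 73 members and 3563 of the 27305 genes. A G-quadruplex pattern, 4 runs of at least 3 guanines spaced by 1 to 7 bases, was in 17.8% of members and 26.3% of genes. These matches describe the letters of the reference, and binding was not measured.

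The other nuclear members of widest range departed mostly in SBO05 too, in both directions. COX6B1, a subunit at the junction of complex IV dimers, stood at 408 and 385 CPM in the loads of SBO05 and at 507 to 697 CPM in the other 10 values of the pool, a change of -0.60 ± 0.03 SE. NDUFAB1, the mitochondrial acyl carrier protein and a complex I subunit, stood at 310 and 297 CPM against 420 to 463 CPM, a change of -0.53 ± 0.03 SE. COX5A fell by 0.52 ± 0.03 SE, the assembly factor NDUFAF4 by 0.41 ± 0.04 SE, NDUFV3 by 0.37 ± 0.04 SE and NDUFA8 by 0.32 ± 0.03 SE. In COX6B1 and NDUFAB1 the SBO05 loads lay below the rest of the pool without overlap.

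NDUFS4, an accessory subunit of the electron input module of complex I, stood at 107.5 and 110.1 CPM in SBO05 against 65.1 to 84.2 CPM, and rose by 0.62 ± 0.04 SE. ATP5F1A, the alpha subunit of the catalytic head of ATP synthase, rose by 0.44 ± 0.03 SE. NDUFS1, an iron-sulphur subunit of complex I, rose by 0.29 ± 0.05 SE. These 9 genes passed edgeR's test in SBO05 at adjusted p-values of 6.63e-06 or less, and with plain library totals none changed direction.

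In SBO01 the direction of the nuclear members depended on the scaling. With TMM, 51 were higher and 10 lower, where 28.7% of all genes were higher and 25.3% lower. With plain library totals 28 of 86 were higher and 28 lower, where 2895 of all 15113 genes were higher and 5342 lower. The median change of all genes in SBO01 was -0.01 with TMM and -0.11 with plain totals, and the share of all calls that were higher was 53.1 and 35.1%. The 13 mitochondrial members were higher under both. NDUFAF4 rose in SBO01 by 0.64 ± 0.04 SE (0.54 with plain totals), with 88.0 CPM there and 50.3 to 69.5 CPM in the other 5. In SBO12, 34 nuclear members were higher and 14 lower with TMM, where 23.1% of all genes were higher and 21.4% lower. With plain totals 28 were higher and 25 lower, where 2807 of all 15113 genes were higher and 3761 lower. Among SBO12 cells whose highest barcode was SBO12, 28 were higher and 7 lower, and with the stricter barcode rule, 15 and 3. The count lower was 5 without library 3 or library 4.

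Related genes outside the membership are given for comparison, where 28.7% of all genes were higher and 25.3% lower in SBO01, 37.4 and 33.8% in SBO05, and 23.1 and 21.4% in SBO12. Complex II, the only respiratory complex with no mitochondrially encoded subunit, had all 4 of its genes higher in SBO01, in SBO05 and in SBO12, with medians of 0.20, 0.24 and 0.17. Of 13 tricarboxylic acid cycle genes, 11, 9 and 10 were higher in those populations and 0, 2 and 1 lower. Of 78 mitochondrial ribosomal protein genes, 59, 31 and 28 were higher and 0, 23 and 11 lower. Of 24 genes for transcription and handling of mitochondrial RNA, 15, 9 and 8 were higher and 0, 7 and 3 lower. Glycolytic genes were higher in 11, 15 and 9 of 19 and lower in 1, 3 and 1.

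Some nuclear members barely moved. COX4I1, a regulatory subunit of complex IV, ran from 921 to 982 CPM over the 12 populations, NDUFS5 from 602 to 645 CPM and NDUFC2 from 500.1 to 543 CPM. COX4I1 and NDUFC2 passed the F test in neither pool, and NDUFS5 passed in libraries 1 and 2 (edgeR adjusted p = 3.28e-04 there and 0.319 in libraries 3 and 4). ATP5IF1, which blocks ATP synthase from running backwards, ran from 388 to 443 CPM.

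The tissue isoforms were almost all of the common kind. COX4I2, COX6A2, COX7A1, COX7B2 and COX8C, known from lung, muscle or testis, had 9, 0, 2, 1 and 6 UMIs over the 4 libraries and fell below the minimum of 100. Just above it were ATP5MGL with 214 UMIs, NDUFA4L2 with 581 and COX6B2, the testis form of COX6B1, with 802, each at 2.1 CPM or less in every population. The common partners COX6A1, COX7A2, COX7B and COX8A had medians of 988, 633, 347 and 579 CPM. ATP5MGL is a near copy of ATP5MG, as UQCRHL is of UQCRH, and reads shared between such copies could have been divided or lost in counting.

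The next comparison asked how nuclear members differed between cells rich and poor in mitochondrial transcripts. Cells of each population in each library were divided into 3 tiers of equal size by the share of their UMIs from mitochondrial genes, and mitochondrial genes were then left out of all sums and totals. Nuclear members summed to 29513, 27940, 29326 and 29526 CPM of nuclear UMIs in the low tier of libraries 1 to 4, and 28350, 26857, 28409 and 28581 in the high tier. The sum was lower in the high tier in all 4 libraries, with a mean difference of -1027 ± 116 CPM (SD, n = 4; exact sign-flip permutation test, two-sided, p = 0.13, the smallest that 4 libraries allow), although the ranges of the tiers overlapped between libraries.

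With TMM scaling, 70 of the 87 nuclear members were lower in the high tier and 1 was higher, where 22.1% of all 16022 genes were lower and 20.8% higher by edgeR. The median over members was -0.15 on the log2 scale, beside 0.01 for all genes. With plain library totals 40 were lower and 7 higher, where 1628 of all 16022 genes were lower and 5781 higher. The member median was then -0.04 and that of all genes 0.11, so the members lay below the median gene under both scalings. By role, 32 of 38 complex I subunits, 7 of 10 complex III subunits, 10 of 12 complex IV subunits, 14 of 18 ATP synthase subunits and 6 of 8 assembly factors were lower.

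Among called members averaging at least 20 CPM and moving the same way in all 4 libraries, TMM gave NDUFAF3 the largest change. This complex I assembly factor stood at 160.0, 159.9, 167.3 and 167.8 CPM of nuclear UMIs in the low tier of libraries 1 to 4. In the high tier it stood at 134.8, 140.0, 139.4 and 145.2. The tiers did not overlap, and the log2 change was -0.33 ± 0.03 SE (edgeR adjusted p = 9.92e-10). NDUFA12, an accessory complex I subunit, stood at 269.6, 261.2, 272.2 and 267.0 against 237.9, 223.6, 249.7 and 246.5, also without overlap, with a change of -0.26 ± 0.03 SE. COX5A, a matrix-side subunit of complex IV, changed by -0.27 ± 0.03 SE, UQCRQ of complex III by -0.26 ± 0.03 SE, and NDUFA11 and NDUFB5 of complex I by -0.25 ± 0.03 SE and -0.24 ± 0.03 SE. Every one of these 6 was lower in all 4 libraries and also with plain library totals. On plain totals, the scale of the CPM given, the changes were -0.23 for NDUFAF3, -0.16 for NDUFA12 and -0.17 for COX5A. They were -0.15 for both UQCRQ and NDUFA11, and -0.13 for NDUFB5.

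NDUFS1 was the only member called higher in the high tier with TMM scaling. On plain library totals it was 1 of 7 called higher, and its change, 0.32, was larger in size than that of NDUFAF3. NDUFS1 stood at 36.2, 40.7, 34.6 and 35.1 in the low tier and at 50.5, 51.3, 43.2 and 38.1 in the high tier. It was higher within each library although the tiers overlapped, with a TMM change of 0.21 ± 0.04 SE (edgeR adjusted p = 1.26e-04).

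Other gene groups and depth moved with the same tiers. Of 81 cytosolic ribosomal protein genes 61 were lower, and of 78 mitochondrial ribosomal protein genes 63 were. Complex II had 2 of 4 genes lower and 1 higher. These counts depended on the scaling: with plain library totals 48 cytosolic ribosomal protein genes were lower and 19 higher, 27 mitochondrial ones were lower and 2 higher, and complex II had 2 higher and none lower. MALAT1 and NEAT1, RNAs kept in the nucleus, were both higher, with a median log2 change of 0.72. The mean over libraries of the median UMIs per cell was 33154 in the low tier and 26375 in the high tier. With only cells of at least 10000 UMIs, each thinned to 10000, 50 nuclear members were lower and 2 higher. The part of nuclear RNA was not tested.

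The last comparison asked how members differed between cells of 1 population at the epithelial and the mesenchymal end. Each cell was scored by the 12 mesenchymal minus the 12 epithelial markers, and cells of each population in each library were divided into 3 tiers. The ratio of mitochondrial to nuclear member UMIs was 0.518, 0.563, 0.615 and 0.579 in the low tier of libraries 1 to 4 and 0.553, 0.559, 0.606 and 0.553 in the high tier. It was higher in 1 library and lower in 3, with a mean log2 difference of -0.00 ± 0.07 (SD, n = 4; exact sign-flip permutation test, two-sided, p = 1.0, where the smallest possible was 0.13).

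Single members did change. Of the mitochondrial members 5 were higher and 1 lower in the mesenchymal tier, and of the nuclear members 23 were higher and 16 lower, where 18.1% of all 15769 genes were higher and 16.4% lower by edgeR. The counts of nuclear members were thus near the background shares. With plain library totals 4 mitochondrial members were higher and 2 lower, and 20 nuclear members were higher and 17 lower. Of all 15769 genes, 2677 were then higher and 2737 lower. The 5 mitochondrial members fell to 3 without library 1 or library 2, the 23 nuclear members to 14 without library 2 and 13 without library 3, and the 16 to 10 without library 1.

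NDUFS4 had the largest change among the called members that averaged at least 20 CPM and moved the same way in all 4 libraries, with 77.0, 77.8, 69.3 and 66.2 CPM in the low tier and 91.2, 91.6, 85.8 and 88.3 CPM in the high tier. The tiers did not overlap, and the change was 0.31 ± 0.03 SE (edgeR adjusted p = 1.76e-07). NDUFB6 and NDUFA6, accessory complex I subunits, rose by 0.13 ± 0.02 SE and 0.12 ± 0.02 SE without overlap, and the assembly factor NDUFAF2 rose by 0.14 ± 0.03 SE. COX5A and NDUFAB1 each changed by -0.15 ± 0.02 SE.

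Among mitochondrial members MT-ATP8 rose by 0.18 ± 0.03 SE, MT-ND6 by 0.16 ± 0.03 SE, MT-ATP6 by 0.12 ± 0.02 SE, MT-CYB by 0.07 ± 0.02 SE and MT-ND5 by 0.06 ± 0.02 SE, while MT-CO2 changed by -0.10 ± 0.02 SE. MT-CO2 stood at 3375, 3291, 4206 and 4048 CPM in the low tier and at 3225, 3010, 3990 and 3659 CPM in the high tier, lower within each library. The cells of SBO05 are among those divided into tiers, so this comparison and that of SBO05 with its pool share cells and are not independent.

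**Figure D4:**
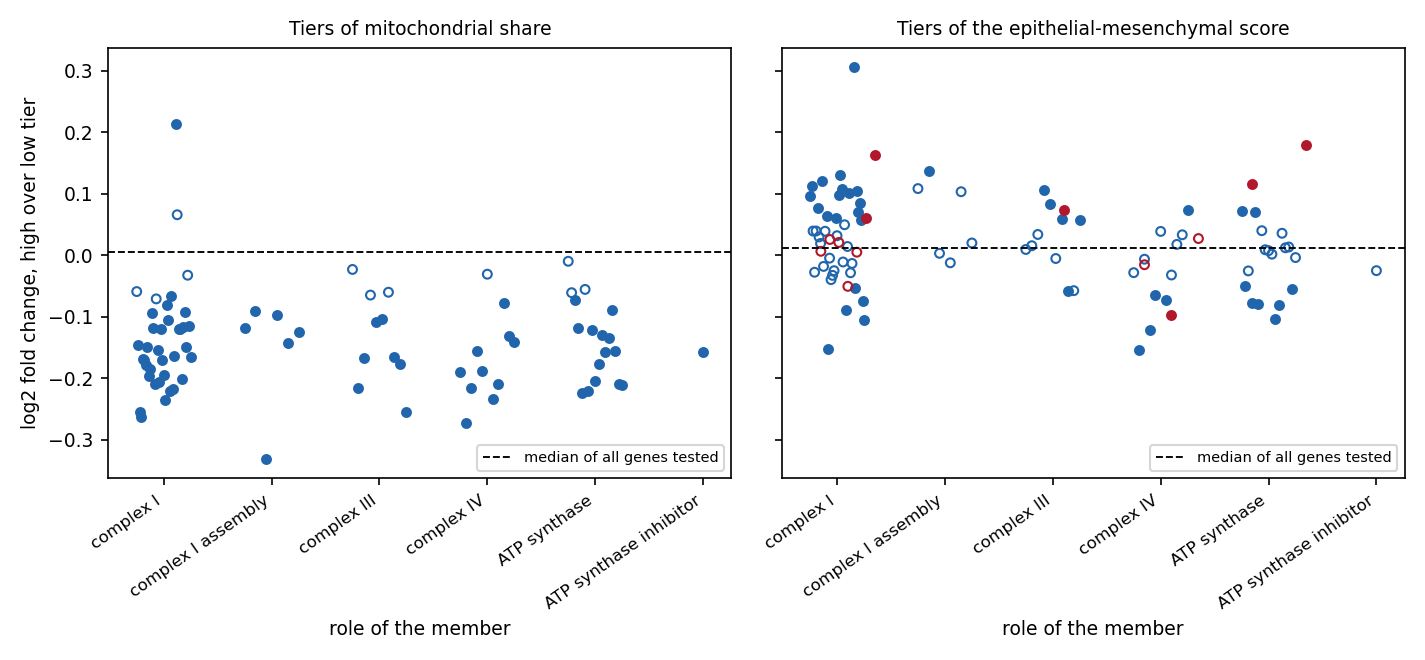
Log2 fold change between the high and low tier of mitochondrial share (left) and of the epithelial-mesenchymal score (right) for each member with a mean of at least 20 CPM, by role. Blue points are nuclear and red points mitochondrial members, filled points passed a false discovery rate of 0.05 in edgeR, and the dashed line is the median of all genes tested. On the left nearly all points lie below that line, with NDUFS1 at 0.21 the one called above it, and on the right they lie on both sides.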

How the data were processed

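Single-cell mRNA and sample barcode libraries of HMLE cells were used as UMI counts per gene and cell deposited by the authors, with the tools Cell Ranger 6.0.2, Seurat 4.1.0 and bcl2fastq 2.20.0.422 and the build hg38 named, per the submitters' processing notes. The limits for keeping a cell were 1000 detected genes and 15% mitochondrial UMIs, and kept cells were assigned with HTODemux (Seurat 5.3.0, positive quantile 0.99). Cells called doublets or negative by barcode were left out, and no other doublet caller was run. UMIs were summed per population or tier and library, and CPM were computed from the deposited counts. Sums were tested with edgeR 4.0.16 (R 4.3.3; quasi-likelihood, TMM, filterByExpr, library as block, Benjamini-Hochberg over all genes), with DESeq2 1.42.0 as an alternative. The code was tested on simulated data.

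The members and lists were chosen with earlier results of these data known. Genes named were all mitochondrial members, the 10 nuclear members of largest and the 3 of smallest range over populations (mean of at least 20 CPM), the 6 of largest change in each tier comparison among those called the same way in all 4 libraries, tissue isoforms, the inhibitor and members next to the UMI minimum. NDUFS1 in the tiers of mitochondrial share was also named, after its value was seen, as were COX5A and NDUFAB1 where they recur. Library numbers pair the sums because each library holds every tier and population of its pool, so library was a block. Other settings tried were cell limits, barcode rules, thinning to 10000 UMIs, filters, scalings and left-out libraries or populations. One marker of the basal mammary list is not reported here.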

Additional observations from a re-analysis of the deposited data

Results flagged for a closer look

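In 4 cases the change between tiers differed between the pools by an interaction term in edgeR. In the tiers of mitochondrial share, NDUFAB1 changed by -0.16 and -0.16 in libraries 1 and 2 and by -0.05 and -0.06 in libraries 3 and 4 on the log2 scale, a difference of 0.17 (edgeR adjusted p = 0.0351). In the tiers of the epithelial-mesenchymal score, NDUFAF4 changed by -0.11 and -0.14 in libraries 1 and 2 and by 0.08 and 0.07 in libraries 3 and 4, a difference of 0.22 (edgeR adjusted p = 0.0109). MT-ND6 changed by 0.29 and 0.24 against 0.08 and -0.01, a difference of -0.20 (edgeR adjusted p = 0.0221). MT-CYB changed by 0.18 and 0.08 against -0.00 and 0.01, a difference of -0.10 (edgeR adjusted p = 0.0449).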

How the results depend on the processing

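The pools' populations and libraries limit these results, since each pool has 2 loads and no replicate culture. Without the replicate block (library), 19 nuclear members differed between populations of libraries 3 and 4 in place of 57, 14 were lower and 0 higher over the tiers of mitochondrial share in place of 70 and 1, and over the score tiers 0 mitochondrial and 1 nuclear were higher and 0 and 0 lower. SBO01 then had 6 nuclear members lower and SBO12 had 5. With plain library totals the tiers of mitochondrial share gave 40 lower and 7 higher, the score tiers 2 mitochondrial lower, SBO01 28 nuclear higher and 28 lower, and SBO12 25 lower. With the top barcode rule the score tiers gave 8 mitochondrial higher and 0 lower, the share tiers 2 higher, SBO12 15 nuclear higher and 3 lower, and the ratio a range of 0.53 (exact permutation p = 0.0431) in libraries 1 and 2 and 0.19 (p = 0.224) in libraries 3 and 4. Thinning gave 3 mitochondrial higher and 2 lower, and 14 nuclear higher and 7 lower, over score tiers, and 2 higher over share tiers. At most 5% mitochondrial UMIs gave 2 mitochondrial lower over score tiers, 2 higher over share tiers and a ratio range of 0.57 (exact permutation p = 0.0125). No mitochondrial limit, or no filter on low counts, gave 2 mitochondrial lower over score tiers, and no filter gave 7 nuclear lower in SBO12. Cells with their own barcode highest gave 7 lower in SBO12, and 26 nuclear members differed in libraries 3 and 4 without SBO12. These 2 settings, plain totals and leaving out SBO05 were chosen after seeing the data.

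Leaving out 1 library at a time gave, for nuclear members, 71 to 78 differing in libraries 1 and 2 and 25 to 66 in libraries 3 and 4, 59 to 74 lower and 1 to 2 higher over share tiers, 13 to 19 higher and 10 to 15 lower over score tiers, 41 to 50 higher and 6 to 11 lower in SBO01, 42 to 48 and 14 to 16 in SBO05, and 24 to 39 and 5 to 17 in SBO12. For mitochondrial members it gave 3 to 5 higher and 1 to 2 lower over score tiers. The ratio range was 0.48 to 0.58 and 0.37 to 0.48, and its score difference -0.03 to 0.02. Signs turned for SBO01 in ATP5MC2 (0.054) and COX5A (-0.0087) without SBO05 and in NDUFS5 (-0.0086) and COX5A (-0.0017) with plain totals, and for SBO12 in MT-CO1 (-0.033) and COX6B1 (0.029) with the top barcode rule. The causes were not tested.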
